A study of Rattus norvegicus with 3 samples.

Results

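Prostaglandins are short-lived lipid messengers made from arachidonic acid. Phospholipases A2 release the acid from membranes, the cyclooxygenases Ptgs1 and Ptgs2 convert it to prostaglandin H2, terminal synthases turn that into the individual prostanoids, receptors on the cell surface read them, and the dehydrogenase Hpgd inactivates them. Ptgs1 is known as the isoform that many tissues keep on, and Ptgs2 as the one that cytokines and growth factors induce, in heart cells among others. The genes described here are 10 members of this route out of 14218 genes measured: Pla2g2a, Pla2g4a, Ptgs1, Ptgs2, Ptges, Ptgis, Ptgds, Ptger2, Ptger4 and Hpgd. They were chosen by symbol, with earlier results of these same arrays known, and Ptgs2 and Pla2g2a were already among the genes with large differences, so their differences are given as descriptions.

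The cells were cardiomyocytes of fetal Wistar rats, freed from the tissue by enzyme digestion. After 48 hours on the plate they spent 24 hours in 1 of 3 media. Fresh culture medium was the control, and the others were conditioned by skeletal myoblasts (the dividing precursors of skeletal muscle) or by cardiac fibroblasts (matrix-producing cells of the heart). All groups shared the strain, stage and cell preparation, and each had 1 Affymetrix 3' expression array, so there is no replicate check, no standard error and no test, and the number of arrays limits the precision. The labels do not say how many animals a culture held, nor do they name a gene change in any group.

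Values are log2 RMA signals that were deposited relative to the median array of each probe set, so a difference of 1 is 2-fold. Where a probe set had 2 values, its blank was taken as the median array. Another 8002 of 31099 probe sets had 1 value and 5980 had none. All blanks were read as 0, so a difference of 0 between blank cells comes from that reading. The absolute level of a gene is therefore unknown, and neither the identity of the cultures as cardiomyocytes nor the presence of other cells could be checked against marker levels. Fewer cells of a type and less RNA per cell cannot be told apart in such samples. As a measure of technical spread, 42 probe sets for control transcripts, meant to be added equally, differed from control by at most 0.66 in myoblast medium and 0.68 in fibroblast medium. One conditioned medium differed from the other by at most 1.02 in these probe sets. With signs, the differences from control ran from -0.01 to 0.66 in myoblast medium and from -0.68 to 0.59 in fibroblast medium. For myoblast minus fibroblast medium they ran from -0.48 to 1.02. There the hybridisation controls had a median of -0.28 and the poly-A controls 0.58. The largest size is therefore no even band around 0. The 3' minus 5' difference of the hexokinase probe sets was 0.85 higher in fibroblast medium than in control, against -0.01 for those of GAPDH and 0.22 for those of beta-actin. The part of these end differences in the results below was not tested.

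The promoters of 3 members are shown first because these genes had the largest differences from control among the members, in different media. RefSeq's promoter table of build GRCr8, which covers 250 bases before to 50 bases after each gene's start, held 9 of the 10 members, and Ptgis is named only. Capitals mark, on either strand, the letters TTGCNNAA (a C/EBP pattern), CACGTG (an E-box) and GGG followed by any 5 bases and CC (a loose NF-kB pattern). Ptgs2 lies at chr13:64713813-64714112 on the plus strand, Pla2g4a at chr13:64572303-64572602 on the minus strand and Pla2g2a at chr5:156359475-156359774 on the plus strand.
Ptgs2: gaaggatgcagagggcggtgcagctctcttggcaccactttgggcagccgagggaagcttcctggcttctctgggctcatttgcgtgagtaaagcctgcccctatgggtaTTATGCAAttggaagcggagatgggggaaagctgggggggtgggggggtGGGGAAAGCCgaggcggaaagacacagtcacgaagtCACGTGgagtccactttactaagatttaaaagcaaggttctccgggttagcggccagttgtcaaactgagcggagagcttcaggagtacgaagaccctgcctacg
Pla2g4a: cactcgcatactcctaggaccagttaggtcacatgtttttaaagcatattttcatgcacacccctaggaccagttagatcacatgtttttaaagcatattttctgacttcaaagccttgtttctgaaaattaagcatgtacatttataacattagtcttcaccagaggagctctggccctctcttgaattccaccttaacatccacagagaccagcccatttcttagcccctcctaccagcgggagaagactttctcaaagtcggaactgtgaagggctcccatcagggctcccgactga
Pla2g2a: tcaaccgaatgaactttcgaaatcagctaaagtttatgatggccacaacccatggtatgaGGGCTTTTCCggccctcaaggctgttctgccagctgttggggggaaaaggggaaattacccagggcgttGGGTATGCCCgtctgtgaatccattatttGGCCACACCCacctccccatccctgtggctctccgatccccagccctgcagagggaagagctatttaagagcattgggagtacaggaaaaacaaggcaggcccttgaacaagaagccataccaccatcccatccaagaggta

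In the Ptgs2 window the C/EBP letters began at -140, the loose NF-kB letters at -91 and the E-box at -55, counted from the gene's start, with no overlap between them. The C/EBP letters stood in 10.6% of 33469 promoters of the same length, the E-box in 6.42% and the loose NF-kB letters in 47.3%. The Pla2g2a window held the loose NF-kB letters at 3 places, beginning at -190, -121 and -92, and neither of the other patterns. None of these 3 patterns stood in the Pla2g4a window. Among the other member promoters, the C/EBP letters also stood in that of Ptges and the E-box in that of Hpgd. The loose NF-kB letters also stood in those of Ptgs1, Ptges and Ptger2. Of the other letters searched, on both strands, TATAAA (in 14.2% of promoters) was in the Pla2g4a window, reversed and beginning at -108. GGGCGG (33.1%) was in the Ptgs2 window at -238 and in the promoters of Ptges, Ptgds and Hpgd. TGANTCA (7.33%) and TGACGTCA (1.83%) were in none of the 9 member promoters. A match describes letters and not a bound site. Ptgs2 and Pla2g4a are neighbours on chromosome 13, facing away from each other, with 141.7 kb between their starts and 0 other protein-coding genes of the RefSeq table between them.

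The medium conditioned by cardiac fibroblasts gave higher signals at several steps of the route. Ptgs2, the inducible cyclooxygenase, was 16.2-fold higher than in control, Pla2g4a, the calcium-dependent cytosolic phospholipase A2, 4.08-fold higher, and Ptgis, the prostacyclin synthase, 3.91-fold higher. These were the 3 of 10 members at least 2-fold higher, and 0 of 10 were at least 2-fold lower, while among all genes 4.26% lay 2-fold or more above control and 2.6% as far below it. The median log2 difference of the members was 0.29, against 0.00 over all genes. Since the members were picked with this comparison in view, nothing is read from those shares.

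In the myoblast-conditioned medium 1 member differed from control by at least 2-fold. Pla2g2a, a secreted phospholipase A2, was 9.90-fold lower than in control and was the 1 of 10 members at least 2-fold lower, with 0 of 10 at least 2-fold higher. Over all genes, 0.844% were at least 2-fold lower and 1.35% at least 2-fold higher. The median of the members was -0.01. Both conditioned media were compared with the same control array, so its own deviation enters both differences.

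**Figure D1:**
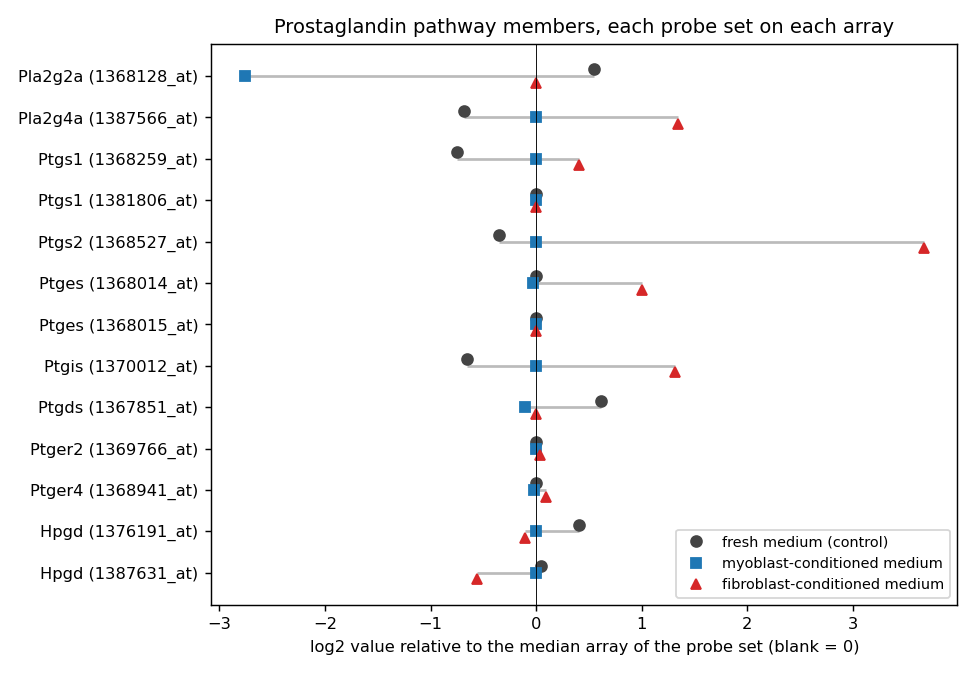
The log2 value of each of the 13 probe sets of the 10 members on the 3 arrays, relative to the median array of that probe set. Ptgs2 stands alone at 3.67 in fibroblast medium and Pla2g2a at -2.76 in myoblast medium, and the probe sets 1381806_at of Ptgs1 and 1368015_at of Ptges had no value on any array.

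Of the phospholipases, Pla2g2a and Pla2g4a had different patterns. The secreted enzyme, which acts outside the cell and is known from inflammatory fluids, stood at 0.55 in control, at the median value of 0 in fibroblast medium and at -2.76 in myoblast medium. Its myoblast array was therefore far below the other arrays, which lay close together. The log2 difference from control was -3.31 in myoblast medium, the third lowest of 14218 genes, and -0.55 in fibroblast medium, within the 0.68 spanned by the added controls. Between the conditioned media it was -2.76, or 6.76-fold lower in myoblast medium.

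Pla2g2a sits in a run of 6 phospholipase genes on chromosome 5, with 0 other protein-coding genes among them in the RefSeq table. In myoblast medium the log2 difference from control was 0.12 for Pla2g5 and -0.19 for Pla2g2d. Pla2g2c had no value on any array and Pla2g2f was blank in both of these cultures, so they give no comparison, and Pla2g2e was not analysed here.

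Pla2g4a, whose product moves to internal membranes when calcium rises and prefers arachidonic acid there, was at -0.68 in control, 0 in myoblast medium and 1.35 in fibroblast medium. All 3 arrays were spaced apart, with control lowest. The log2 difference from control was 2.03 in fibroblast medium, rank 155 from the highest, and 0.68 in myoblast medium, rank 417 and only just beyond the largest difference of the added controls.

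The cyclooxygenases differed in size and in how well their probe sets supported a value. Ptgs2 was at -0.35 in control, 0 in myoblast medium and 3.67 in fibroblast medium, so that the fibroblast array stood apart from a close pair. Its log2 difference from control was 4.02 in fibroblast medium, rank 15 from the highest of 14218, and 0.35 in myoblast medium. Ptgs1 has 2 probe sets, of which 1381806_at had no value on any array. The other, 1368259_at, was at -0.75 in control, 0 in myoblast medium and 0.40 in fibroblast medium, a log2 difference from control of 1.16 in fibroblast medium and 0.75 in myoblast medium. The mean of both probe sets, used as the gene's value, was 0.58 and 0.38, so whether Ptgs1 passes 2-fold in fibroblast medium depends on the probe set without values.

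Terminal synthases did not move as a block. Ptgis, the enzyme of prostacyclin, which relaxes vessels and restrains platelets, was at -0.65 in control, 0 in myoblast medium and 1.32 in fibroblast medium, with log2 differences from control of 0.65 and 1.97 in the conditioned media. Control was the lowest array, and the 0.65 of myoblast medium lay within the range of the added controls. Ptges, the inducible synthase of prostaglandin E2, had a value from probe set 1368014_at alone, at 0 in control, -0.03 in myoblast medium and 0.999 in fibroblast medium, just short of 2-fold. With the empty probe set 1368015_at averaged in, its log2 difference from control was 0.50 in fibroblast medium and -0.02 in myoblast medium. Ptgds, the lipocalin-type synthase of prostaglandin D2, was highest in control at 0.62, against 0 in fibroblast medium and -0.11 in myoblast medium. Its log2 differences were -0.62 and -0.72. The latter exceeded in size the 0.66 of the added controls, whose lowest difference in myoblast medium was -0.01.

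Receptors among the members showed little difference. Ptger2 and Ptger4 encode the EP2 and EP4 receptors of prostaglandin E2, which raise cyclic AMP. Ptger2 was blank in control and myoblast medium, which were read as 0, and at 0.04 in fibroblast medium, and Ptger4 was at 0 in control, -0.02 in myoblast medium and 0.09 in fibroblast medium. All these differences were far smaller in size than the largest of the added controls. In myoblast medium, however, those controls ran from -0.01 to 0.66 with a median of 0.29, so Ptger4 lay just below the lowest. Whether the probe sets of these receptors were above background is not known.

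Hpgd, the 15-hydroxyprostaglandin dehydrogenase that begins the breakdown of prostaglandins, was lower in fibroblast medium in both of its probe sets. Probe set 1376191_at was at 0.40 in control, 0 in myoblast medium and -0.11 in fibroblast medium. The second, 1387631_at, was at 0.04, 0 and -0.56. The probe sets thus differed in where the control array stood but had similar log2 differences of -0.51 and -0.60 between fibroblast medium and control, with a mean of -0.56, which is within the 0.68 of the added controls.

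**Figure D2:**
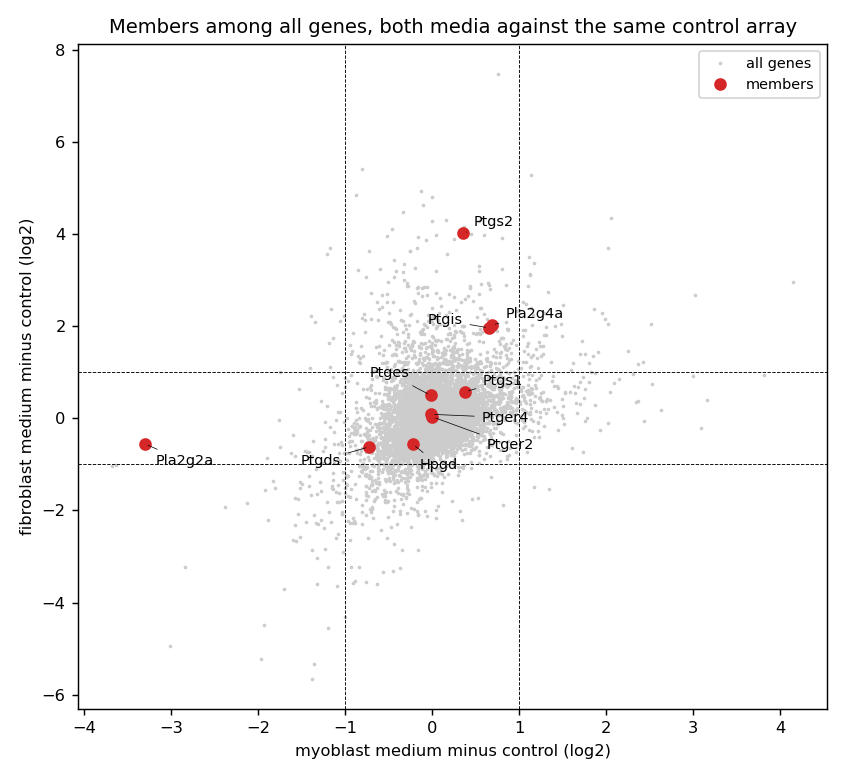
Log2 difference from control of every gene in myoblast medium (horizontal axis) and fibroblast medium (vertical axis), with the 10 members in red and dashed lines at 2-fold. Both axes share the control array. Ptgs2, Pla2g4a and Ptgis lie above the upper line at 4.02, 2.03 and 1.97, and Pla2g2a lies left of the left line at -3.31.

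Set directly against each other, the conditioned media differed by at least 2-fold in 4 of 10 members, all lower in myoblast medium, while 3.94% of all genes were at least 2-fold lower there and 2.12% at least 2-fold higher. These were Ptgs2 at -3.67 (12.7-fold), Pla2g2a at -2.76, Pla2g4a at -1.35 (2.54-fold) and Ptgis at -1.32 (2.49-fold). All 4 exceeded the 1.02 of the added controls in size. On the negative side those controls reached only -0.48, and the mean of Ptges at -0.52 also lay below that. Hpgd was the 1 member with a higher signal in myoblast medium, by 0.33. The median log2 difference of the members was -0.36.

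The rest of the route was read from 6 lists that hold 77 genes besides the members, of which 65 were measured with a probe set of their own. Under fibroblast medium 7 of the 65 lay 2-fold or more above control and 2 as far below it, or 10.8% and 3.08%, beside 4.26% and 2.6% of all genes. Under myoblast medium 1 was higher (1.54%, beside 1.35% of all genes) and 0 were lower. Both medians were 0.00. Through blanks, 15 of the 65 stood at 0 under fibroblast medium and 16 under myoblast medium, beside 2261 and 2953 of all 14218 genes. In the direct comparison 4 were higher in myoblast medium (6.15%, beside 2.12%) and 8 lower (12.3%, beside 3.94%).

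Among phospholipase genes and regulators, Pla2r1, the receptor that binds secreted phospholipases A2, was the gene farthest below control in fibroblast medium. It stood at 0.18 in control, 0 in myoblast medium and -1.84 in fibroblast medium, a log2 difference from control of -2.02 (4.06-fold lower). Anxa1, which encodes annexin A1, a glucocorticoid-induced protein first known as an inhibitor of phospholipase A2, was at 0 in control, -0.43 in myoblast medium and 1.39 in fibroblast medium. Acsl4, which activates arachidonic acid for storage in membranes, was the gene past 2-fold in myoblast medium, at a log2 difference of 1.11, and was at 0.85 in fibroblast medium. Besides the members, 1 of 19 measured genes of this list (Anxa1) passed 2-fold upward and 1 (Pla2r1) downward in fibroblast medium.

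Of the 7 other measured synthase genes, Tbxas1, the thromboxane synthase found in platelets and macrophages, passed 2-fold in fibroblast medium. Its log2 difference was 1.67 (3.19-fold) there and 0.20 in myoblast medium. Hpgds, the haematopoietic synthase of prostaglandin D2, stood at 0 in control, -0.87 in myoblast medium and 0.76 in fibroblast medium. It thus separated the conditioned media by 1.63 without passing 2-fold against control, and it lay on the other side of control from Ptgds in fibroblast medium. Of the further prostaglandin E synthases, Ptges2 was at -0.18 in fibroblast medium and 0.37 in myoblast medium. Ptges3 was at 0.04 in myoblast medium and was blank in control and fibroblast medium, which gives no comparison between those 2 cultures.

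Ptger3, which encodes the EP3 receptor that lowers cyclic AMP, was the receptor with the largest difference. Its 2 probe sets were both higher in fibroblast medium, by 3.33 for 1376977_at and 0.93 for 1369187_a_at on the log2 scale, with a mean of 2.13 (4.38-fold). In myoblast medium they were at 0.08 and 0.04. Ptger1 was at 0.09 in fibroblast medium and 0.18 in myoblast medium, and Ptgfr, the receptor of prostaglandin F2alpha, at 0.83 and -0.09. Tbxa2r, the thromboxane receptor, was blank in control and fibroblast medium, which gives no comparison. Ptgir, the prostacyclin receptor, was not analysed here. In all, 1 of 7 measured receptor-list genes besides the members was at least 2-fold higher and none lower in fibroblast medium. Another 3 of the 7 stood at 0 there through blanks.

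Of 8 measured breakdown and transport genes, Hpgd included, 6 had a value below control in fibroblast medium. The list median was -0.46. Of all 14218 genes, 6133 (43.1%) were below 0, 5824 above it and 2261 at 0 through blanks. None of these 8 genes was at 0. Of the 6, 5 lay within the 0.68 of the added controls, among them the reductases Ptgr1 at -0.61 and Cbr1 at -0.64, and the efflux pump Abcc4 lay just beyond it at -0.69. None of these reached 2-fold. The other two, the organic anion carriers Slco3a1 at 1.56 and Slco4a1 at 1.45, did so upward, the latter with 0.75 and 2.15 in its 2 probe sets. Slco2a1, the prostaglandin uptake carrier that works with Hpgd, was at -0.09. Under myoblast medium this list had a median of -0.02 and none of its genes reached 2-fold.

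The sister routes from arachidonic acid lead to leukotrienes and to epoxy fatty acids. Of 15 measured leukotriene and lipoxygenase genes, Mgst2 was past 2-fold in fibroblast medium, at 1.02. There 6 of the 15 stood at 0 through blanks. Alox5, the 5-lipoxygenase, had no value on any array, and Alox5ap, its activating protein, was at 0.44 in fibroblast medium and -0.29 in myoblast medium. Of 10 genes for epoxygenases and epoxide hydrolases, Ephx2, the soluble hydrolase that removes epoxy fatty acids, was at -1.62 (3.08-fold lower) in fibroblast medium and Ephx1, the microsomal one, at 1.34.

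**Figure D3:**
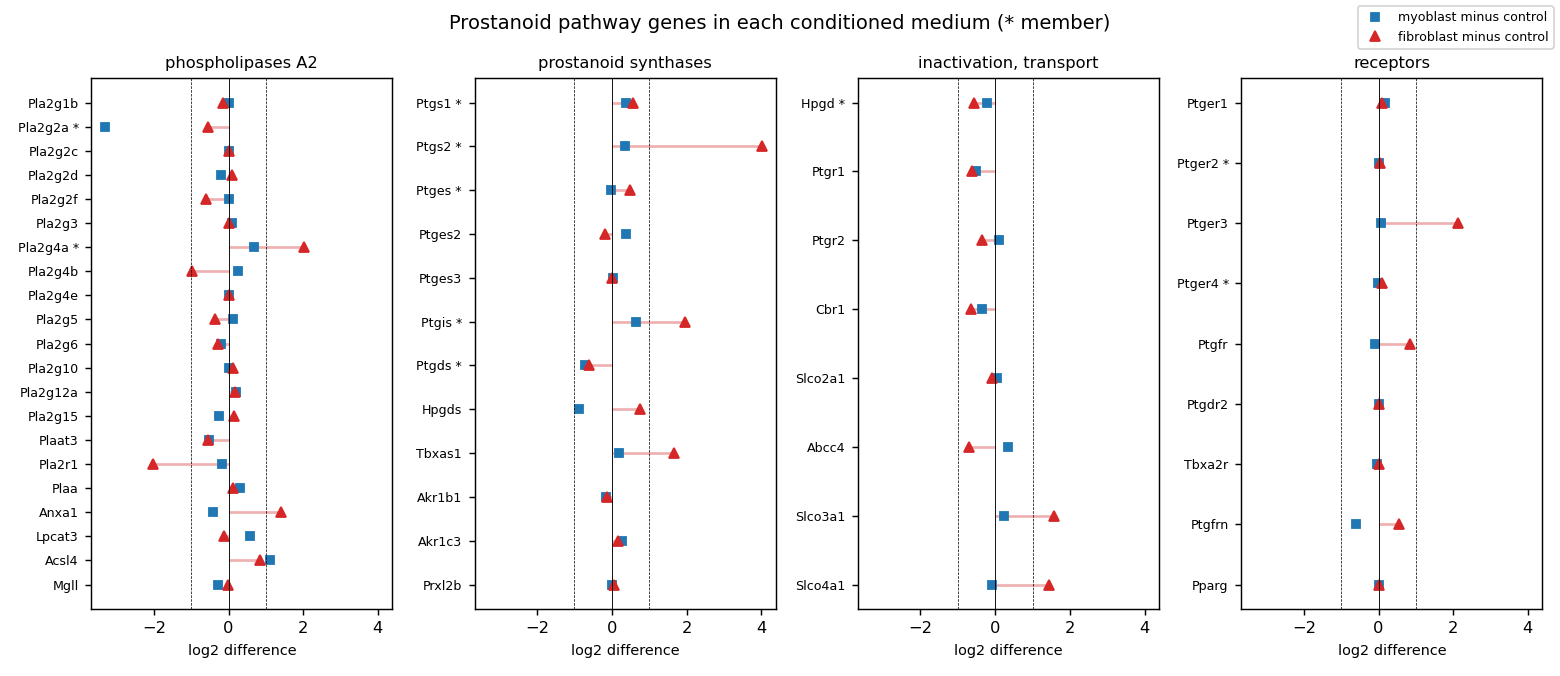
Log2 difference from control of the measured genes of 4 prostanoid lists, with squares for myoblast medium and triangles for fibroblast medium, stars on member names and dashed lines at 2-fold. Triangles pass the upper line for Ptgs2 (4.02), Ptger3 (2.13), Pla2g4a (2.03), Ptgis (1.97), Tbxas1 (1.67), Slco3a1 (1.56), Slco4a1 (1.45) and Anxa1 (1.39), and the lower line for Pla2r1 (-2.02).

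Genes with a pattern like that of Ptgs2 were found by distance over the values relative to control on the same 3 arrays. The 5 nearest were Saa3, an acute-phase protein gene, at a distance of 0.09 log2 units, the matricellular gene Ccn5 at 0.13, the cytokine gene Il1a at 0.15, the matrix gene Ltbp2 at 0.25 and the chemokine gene Ccl3 at 0.31. Their log2 differences from control in fibroblast medium ran from 3.91 for Il1a to 4.15 for Ccn5. A distance over so few arrays ranks genes of similar size and shows no more than that.

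Inflammatory genes that interleukin-1 and NF-kB are known to induce, as Ptgs2 is, were also higher on the fibroblast medium array. Of 21 such genes, 11 were at least 2-fold higher and 0 lower, with a median of 1.69, led by Il1b at 4.94, Il6 at 4.29 and Ccl7 at 4.11. Pla2g2a, which interleukin-1 is known to induce in rat cells, was at -0.55 on that array. Nos2, another gene known to be induced, was at 0.04 against a control that was blank and read as 0. Il6 was likewise blank in control and in myoblast medium. Its 4.29 is therefore the value of the fibroblast medium array set against a blank read as 0. Under myoblast medium 3 of the 21 were at least 2-fold lower, Ccl2 (-1.21), Cxcl1 (-1.18) and Vcam1 (-1.07), and none higher, with a median of -0.14. The shares of all genes there were 0.844% lower and 1.35% higher. Of 14 cyclic AMP and CREB target genes, 1 was at least 2-fold higher in fibroblast medium (Dusp1, 1.58) and 1 lower (Ppargc1a, -1.07), with a median of 0.11. The part of interleukin-1, NF-kB or cyclic AMP in the differences of the prostaglandin genes was not tested.

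Markers of other cell types moved on the same arrays. In fibroblast medium 15 of 19 macrophage markers passed 2-fold upward and none downward, from 0.08 for Cd163 to 5.41 for Adgre1, with a median of 1.94. Endothelial markers had 11 of 16 at least 2-fold lower and none 2-fold higher, from -5.65 for Emcn to 0.83 for Eng, with a median of -2.02, beside the higher value of Ptgis, a gene known from endothelium and smooth muscle. Of 10 smooth muscle and pericyte markers, 3 passed 2-fold upward and none downward (median 0.39), and of 9 epicardial and mesothelial markers 3 were higher and 1 lower (median 0.87). Fibroblast markers had 2 higher and 2 lower of 15 (median 0.24), and among 22 cardiomyocyte markers 7 passed 2-fold downward and none upward (median -0.73).

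In myoblast medium, beside the low Pla2g2a, 2 of 15 fibroblast markers were at least 2-fold lower (Pdgfra at -1.42 and Fbln1 at -1.03) and none higher, with a median of -0.12. For comparison, 0.844% of all genes were at least 2-fold lower there and 1.35% at least 2-fold higher. Endothelial markers had 5 of 16 lower and none higher, with a median of -0.71 and Sox7 lowest at -3.01. Macrophage markers had a median of -0.43, with 1 of 19 higher and none lower, and smooth muscle markers a median of 0.10 with 3 of 10 higher and 1 lower. Epicardial and mesothelial markers had 2 of 9 higher, and cardiomyocyte markers 1 of 22 higher and 1 lower (median -0.16). Summed marker levels per array cannot be had from values without a level, and the part of these cell types in the differences of the prostaglandin genes was not tested.

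**Figure D4:**
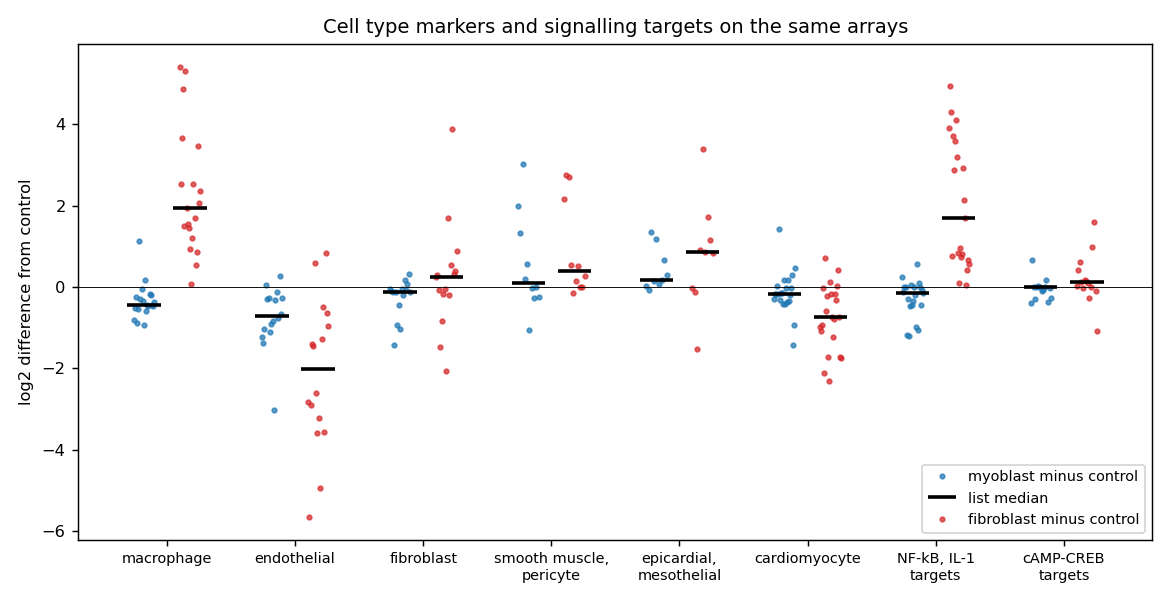
Log2 difference from control of the measured genes of 6 cell type marker lists and 2 signalling target lists, in blue for myoblast medium and red for fibroblast medium, with a black bar at each list's median. In fibroblast medium the macrophage median lies at 1.94 and the endothelial median at -2.02.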

How the data were processed

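Total RNA of 3 cultures was labelled with biotin using the Affymetrix 3' IVT Express kit, with 1 array for each culture, per the labels' protocols. RMA is named in the submitters' processing notes (software, version and settings: not given in the sources used here). Per the values themselves, the authors deposited log2 values centred on each probe set's median over the arrays. Of 31099 probe sets, 17117 had 2 values, always of opposite sign, 8002 had 1, 5980 had none, and none was exactly 0. Blanks were read as 0.

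Platform annotation gave 20832 probe sets 1 gene, 436 several and 9831 none. Symbols were updated through Entrez IDs with RefSeq (GRCr8), which matched 20764. Single-gene probe sets were averaged into 1 value per gene. The 10 members had 13 probe sets, of which 2 had no value. Differences were counted past 2-fold, with no test. The counting steps were checked on simulated data.

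The members and all gene lists were chosen with earlier results of these data known. The genes named were every member, the pathway genes past 2-fold against control, 11 fixed pathway genes, examples from the marker and target lists, and the 5 genes nearest to Ptgs2. The neighbours of Pla2g2a and Ptgfr, Tbxa2r, Ptgr1, Cbr1 and Abcc4 were named after their values were seen. Of 80 listed pathway symbols besides the members, 3 were older names of listed genes, and 12 further genes were not analysed here. A floor on dim probe sets could not be set on centred values. Python 3.11.15, NumPy 2.4.6, pandas 2.3.3 and Matplotlib 3.10.9 were used.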

Additional observations from a re-analysis of the deposited data

How the results depend on the processing

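With 1 array per condition nothing can be said about variation between cultures, and centring hides how bright each probe set was. No paired analysis was possible because each group has 1 array. Of 177 recomputed member values, 164 moved by less than the SD of the added control transcripts and none called value changed sign. Most of these values could not move. For the 7 members with 1 probe set, only recentring the arrays could change a value. The median of 2 probe sets equals their mean, and no member probe set was marked as cross-hybridising. The tally therefore says little about how stable the values are. The 13 that moved were of Ptgs1, Ptges and Hpgd, the members with 2 probe sets. Under 3 settings (the widest-ranging probe set of a gene, only probe sets with values on 2 arrays and, chosen after seeing the data, leaving out probe sets that had no value) Ptgs1 stood at 1.16 and Ptges at 0.999 in fibroblast medium against control. With Ptgs1, 4 in place of 3 members were then past 2-fold upward there. Beside them, 787 of 14218, 646 of 9836 and 625 of 12591 genes were higher in these settings. Ptges was at -1.03 between the conditioned media, where 5 in place of 4 members were lower in myoblast medium. Of all genes, 728 of 14218, 611 of 9836 and 584 of 12591 were lower there. The second setting held 9 of the members.

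At 1.5-fold, 2 members were higher and 2 lower in myoblast medium than in control, and 1 was lower in fibroblast medium. Of all genes at 1.5-fold, 536 were higher and 407 lower in myoblast medium against 192 and 120 at 2-fold, 1293 higher and 991 lower in fibroblast medium against 605 and 369, and 946 higher and 1186 lower in myoblast than in fibroblast medium against 302 and 560. At 3-fold these counts were 54 and 21, 262 and 141, and 84 and 255, and 2 members were lower in myoblast than in fibroblast medium. The floor on dim probe sets was not run, since the values carry no level.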
